A study of Mus musculus with 12 samples.

Results

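Cytosolic ribosomal protein genes were followed in mouse lens RNA at P7 (an age of 7 days). The members were chosen by name from the deposited gene table: protein-coding genes whose symbol is Rpl or Rps followed by a number, the P-stalk genes Rplp0 to Rplp2, and Rpsa, without the S6 kinases. The rule found 83 of the 55487 gene identifiers. Of these members, 80 were among the 8984 genes that passed the filter on low values, that is, 3 or more of the 12 libraries reached 5 CPM (counts scaled to 1000000 counted reads). The tested members were 32 genes of the small (40S) subunit, 45 of the large (60S) subunit and the 3 P-stalk genes. The 3 members that failed the filter, Rpl3l, Rpl10l and Rpl39l, are described below with their values.

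The study sequenced poly-A RNA of whole lenses in 12 libraries, 3 from each of 4 genotypes, to compare a cataract-causing substitution in the cation channel TRPM3 with loss of the channel. Mice named Trpm3-I/M or Trpm3-M/M carry the p.I65M substitution, introduced by CRISPR/Cas9, on 1 or on both alleles. Trpm3-KO mice carry an allele disrupted by homologous recombination, and wild-type (WT) mice carry neither. All were kept on the C57BL6/J background, and each library was prepared, by the study's methods, from lenses of both sexes (4 from males and 4 from females). The labels do not tie any library to particular animals, so p-values measure the spread between these pooled libraries. These groups are called KO, I/M and M/M lenses in what follows.

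A ribosome is built from ribosomal RNA and a fixed set of ribosomal proteins, nearly all present as a single copy per particle, and the genes for these proteins are among the most highly transcribed of any growing cell. Their mRNAs typically begin with a cytosine in a run of pyrimidines at the 5′ end, the 5′ terminal oligopyrimidine (TOP) motif, through which mTORC1 signalling sets how actively they are translated. In the lens, epithelial cells divide and differentiate into fiber cells, which make very large amounts of crystallin protein and later lose their nuclei and ribosomes. Ribosomal protein mRNA of lens cells therefore stems from the epithelium and from fibers that have not yet lost their RNA. Markers of other cell types, given below, were also found in these libraries. In whole-lens RNA fewer cells of a type and less RNA per cell cannot be told apart.

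The annotated transcription starts of members with the largest and the smallest difference between M/M and WT are shown first, since the TOP motif lies there. Each line runs 5′ to 3′ from 10 bases before to 15 bases from the start, on the gene's strand, from RefSeq promoter windows on GRCm38.p6, with every run of at least 6 pyrimidines in capitals. The first 5 genes differed most and the last 5 least among the members with an entry, and where a gene has several annotated starts the first listed is printed.
Rps18 (chr17:33955651-33955675, minus strand): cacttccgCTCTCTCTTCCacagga
Rpl22l1 (chr3:28805498-28805522, plus strand): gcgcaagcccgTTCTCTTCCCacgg
Rps19 (chr7:24884582-24884606, plus strand): aatctcgcgagactcgacgcccgac
Rps10 (chr17:27635230-27635254, minus strand): gcgcacgCCCCTTCCTTTCCagcct
Rps27 (chr3:90213634-90213658, minus strand): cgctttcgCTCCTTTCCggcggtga
Rpl27 (chr11:101442235-101442259, plus strand): ctgttcctgtctgctgctcgtgctg
Rpl24 (chr16:55966265-55966289, plus strand): gctgttgctaggaaacagactgggc
Rpl36a (chrX:134585644-134585668, plus strand): cccaggcaccgcctataaacttccg
Rpl10 (chrX:74270806-74270830, plus strand): tacagtggaagataggccgcctata
Rps27l (chr9:66946076-66946100, plus strand): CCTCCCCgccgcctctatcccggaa

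A pyrimidine run of at least 6 bases between 5 bases before and 10 bases after the start was present in 27 of the 75 windows that matched 63 members, or 36%, against 12.8% of all 32851 windows of the same kind. The string CTTTC, read on the gene's strand between 10 bases before and 20 after the start, was in 20% of the members' windows and 3.74% of all windows, and CTTCC was in 18.7% and 6.36%. CCGGAAG, a core to which ETS-family factors bind, was found on either strand of the 300-base window in 36% of the members' windows and 8.86% of all windows, and can overlap CTTCC. Of the tested members with a window, the 26 with such a run had a median log2 fold change in M/M of −0.51 (quartiles −0.58 and −0.39) and the 34 without had −0.41 (quartiles −0.53 and −0.31), ranges that overlap. These starts are annotated, not measured in the lens, and a letter match is a description, not a site.

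The libraries held 56162169 to 82090198 reads counted on genes, and 1024937 to 1488348 of these fell on members in each library. The lowest count of any tested member in a library was 663 and the highest 77431. Trpm3 itself was at 250.6 to 285.1 CPM in WT and 89.9 to 99.7 CPM in KO libraries, where transcripts of the disrupted allele remain, and at 370.2 to 484.1 CPM in the mutant libraries. I/M replicate 3 stood apart in its sex-linked RNA, with Xist (transcribed from the inactive X chromosome of females) at 0.072 CPM against 74.0 and 121.0 CPM in the other I/M libraries, which goes against a pool of both sexes. Xist was uneven in other genotypes too. WT replicate 2 was at 45.8 CPM against 210.3 and 162.3 CPM, and KO replicate 2 at 304.9 CPM against 145.9 and 165.6 CPM. The called and non-overlapping counts of both comparisons with I/M, and the summed I/M level, are given also without I/M replicate 3. Estimated counts need not be whole, since the counting software shares out reads that match several genes. Among values above 0, 9.22% of the members' values were whole as deposited (tolerance 0) against 72.1% of those of other genes, and members whose 12 values were all whole included Rps21, Rps27l and the 3 that failed the filter.

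As a pool, ribosomal protein mRNA was lowest in M/M lenses once libraries were scaled by TMM factors (trimmed mean of M-values, which hold the bulk of genes level), whereas its share of all counted reads overlapped among the 4 genotypes. The members' TMM-scaled CPM summed to 20151, 22295 and 20772 in WT, 20814, 20526 and 19927 in KO, 18450, 18087 and 18269 in I/M, and 14863, 15208 and 15590 in M/M. The ranges of WT and KO overlapped, every I/M library was below every WT library, and every M/M library was below every I/M library. The mean was 21073 ± 1103 (SD, n = 3) in WT, and the means of KO, I/M and M/M were 96.9%, 86.7% and 72.2% of it. Without replicate 3 the I/M mean was again 86.7% of the WT mean. As a share of counted reads the members took 1.82, 1.85 and 1.87% in WT, 1.83, 1.86 and 1.86% in KO, 1.86, 1.81 and 1.85% in I/M, and 1.82, 1.90 and 1.99% in M/M. On this scale the M/M mean was 103% of the WT mean and the libraries of all genotypes overlapped.

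The share of the crystallin genes, which encode the structural proteins of the fiber cell and hold most lens mRNA, was lower where TMM factors were higher. The 16 crystallin genes took 61.0 to 63.9% of counted reads in WT, 59.9 to 62.2% in KO, 57.1 to 58.2% in I/M and 49.4 to 51.3% in M/M. Outside the crystallin genes, members took 4.88% ± 0.21 of the remaining reads in WT, 4.73% ± 0.10 in KO, 4.34% ± 0.10 in I/M and 3.84% ± 0.10 in M/M (SD, n = 3 each). TMM factors ran from 0.828 to 0.905 in WT and from 1.22 to 1.27 in M/M. The part of the crystallin reads in the members' values was not tested. In the sections below a fold change is on the TMM scale unless stated, that is, relative to the bulk of lens genes.

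**Figure D1:**
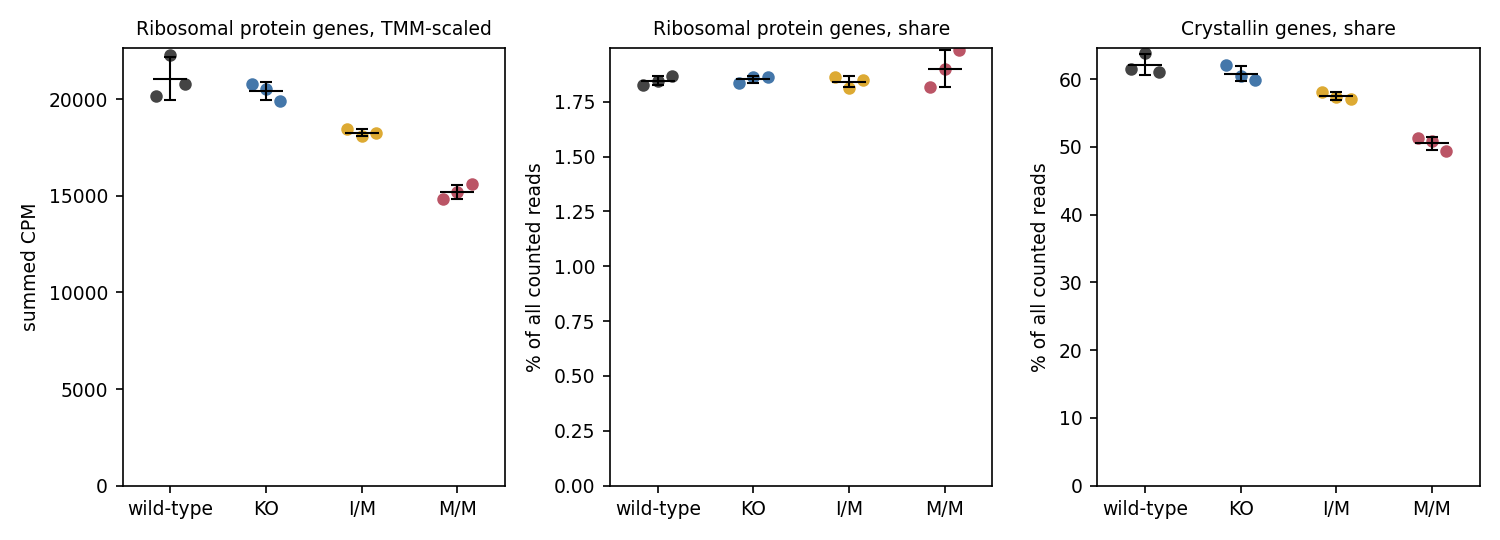
Points are libraries (3 per genotype), with the mean as a horizontal mark and the SD as a bar: left, the summed TMM-scaled CPM of the 83 ribosomal protein genes; middle, their share of all counted reads in percent; right, the share of the 16 crystallin genes. The summed level falls from 21073 in WT to 15220 in M/M on the TMM scale, while the share of counted reads stays between 1.81 and 1.99% in every library and the crystallin share is lowest in M/M.

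In M/M against WT, 77 of the 80 tested members fell and none rose (edgeR's quasi-likelihood test, Benjamini-Hochberg adjusted p of at most 0.05), with TMM factors, whereas with library size only 10 fell and 26 rose. Among all tested genes 31.4% were called lower and 31.4% higher with TMM factors, and with library size only 5.51% were called lower and 82% higher. The members' median log2 fold change was −0.47 (quartiles −0.57 and −0.37) beside 0.00 for all tested genes. The medians with library size only were 0.04 for members and 0.50 for all tested genes, so the members lay 0.47 below the bulk of genes in both fits. Scaling shifts all genes of a library alike, so this equal distance holds by construction and is no separate support. No member passed the fold threshold of 2, which 8.95% of all tested genes passed together with the adjusted p. DESeq2 with its own factors also called 77 lower and none higher, and at an unadjusted p of at most 0.05 edgeR called 77 lower and none higher. Of all 8984 tested genes, 2999 were lower and 2974 higher at that unadjusted p. The 3 TMM values of M/M lay below all 3 of WT for 77 members, against 32.4% of all tested genes.

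**Figure D2:**
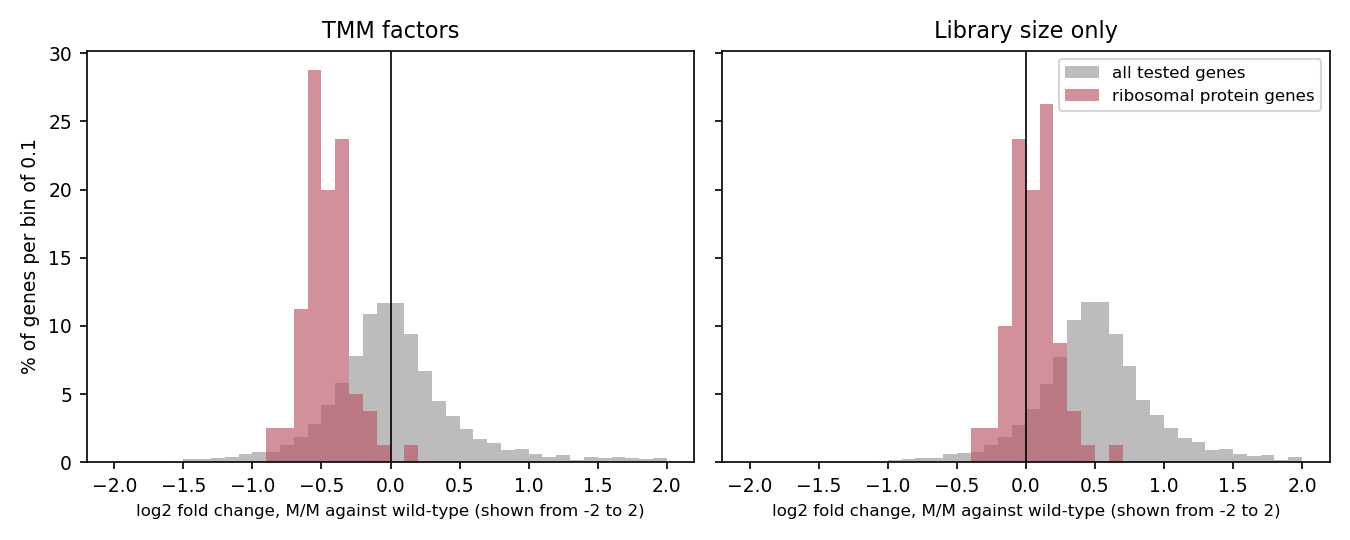
Histograms of the log2 fold change of M/M against WT, as percent of genes per bin of 0.1, for the 80 tested ribosomal protein genes (red) and all 8984 tested genes (grey), shown from −2 to 2. With TMM factors (left) members centre at −0.47 and all genes at 0.00, and with library size only (right) members centre at 0.04 and all genes at 0.50.

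Members of the 40S subunit, which binds mRNA and decodes it, included the largest fall. Rps18, a protein of the head of the small subunit, was at 301.3, 342.7 and 315.5 CPM in WT and at 175.3, 176.9 and 175.5 CPM in M/M. Its libraries did not overlap, and the log2 fold change was −0.86 ± 0.05 (SE, adjusted p = 7.08e-09). Rps18 (chr17:33951999-33956001, minus strand, GRCm38) was also the member with the largest fall between the mutant genotypes, with I/M at 270.3, 255.0 and 257.3 CPM and a log2 fold change of M/M against I/M of −0.57 ± 0.05 (adjusted p = 9.77e-07).

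Rps19, whose human counterpart is the gene most often mutated in Diamond-Blackfan anemia, was at 151.0, 158.4 and 158.5 CPM in WT and at 94.5, 98.3 and 90.6 CPM in M/M. Its log2 fold change was −0.72 ± 0.04 (adjusted p = 1.22e-08), and the libraries did not overlap. Rps10, a protein of the head near the mRNA entry, was at 260.2, 293.5 and 278.7 CPM in WT and at 166.5, 173.7 and 172.7 CPM in M/M, a log2 fold change of −0.70 ± 0.05 (adjusted p = 3.53e-08). Rps6, the small-subunit protein phosphorylated by S6 kinase downstream of mTORC1, lay near the middle of the members. It was at 225.1, 245.6 and 236.1 CPM in WT and at 165.5, 173.5 and 181.9 CPM in M/M, a log2 fold change of −0.44 ± 0.05 (adjusted p = 4.52e-06). Over the 32 tested 40S genes, 31 fell with a median of −0.49. Rps18, Rps19 and Rps10 were among the 10 members that were also called lower with library size only, whereas Rps6 was at 0.07 on that scale and was not called.

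Of the 60S subunit, which joins amino acids into protein, 43 of 45 tested members fell and the median log2 fold change was −0.44. Rpl5 and Rpl11, which with 5S ribosomal RNA form a particle that can bind the p53 inhibitor Mdm2, were not outside the range of the other members. Rpl11 was at 322.5, 377.5 and 347.3 CPM in WT and at 228.5, 239.3 and 237.6 CPM in M/M, a log2 fold change of −0.57 ± 0.05 (adjusted p = 6.76e-07). Rpl5 was at 126.2, 137.1 and 123.7 CPM in WT and at 83.1, 95.1 and 95.1 CPM in M/M, a log2 fold change of −0.50 ± 0.07 (adjusted p = 3.69e-05). Both were near 0 with library size only, at 0.01 for Rpl5 and −0.06 for Rpl11.

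The P-stalk recruits the elongation factors to the ribosome, and its 3 genes were among the most abundant members. Rplp0, the base of the stalk, was at 1017, 1166 and 1057 CPM in WT and at 764.5, 796.2 and 749.9 CPM in M/M, and fell by 0.49 ± 0.05 on the log2 scale (adjusted p = 4.44e-06). Rplp1 was at 440.8, 514.9 and 440.3 CPM in WT and at 336.0, 370.3 and 348.1 CPM in M/M, a log2 fold change of −0.40 ± 0.08 (adjusted p = 4.33e-04). Rplp2 was at 373.2, 411.1 and 386.8 CPM in WT and at 280.7, 275.3 and 270.7 CPM in M/M, a log2 fold change of −0.50 ± 0.05 (adjusted p = 1.66e-06). All 3 were above 0 with library size only, by 0.02, 0.11 and 0.01 in the same order, and none was called there. Per length, using the shortest principal protein-coding transcript of the annotation, the highest WT levels were those of Rpl41 (1985 ± 151 CPM per kb, SD, n = 3), Rplp1 (933 ± 86 CPM per kb) and Rplp2 (927 ± 46 CPM per kb). The lowest were those of the paralogs Rpl7l1 (15.9 ± 0.3 CPM per kb), Rpl22l1 (27.4 ± 2.1 CPM per kb) and Rps27l (31.5 ± 2.4 CPM per kb), and the median member was at 315.1 CPM per kb. The levels of Rplp1 and Rplp2 did not differ beyond their spread. Rpl41 encodes the shortest ribosomal protein, and its log2 fold change in M/M was −0.51 ± 0.07 (adjusted p = 1.72e-05) with TMM factors and 0.00 with library size only.

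**Figure D3:**
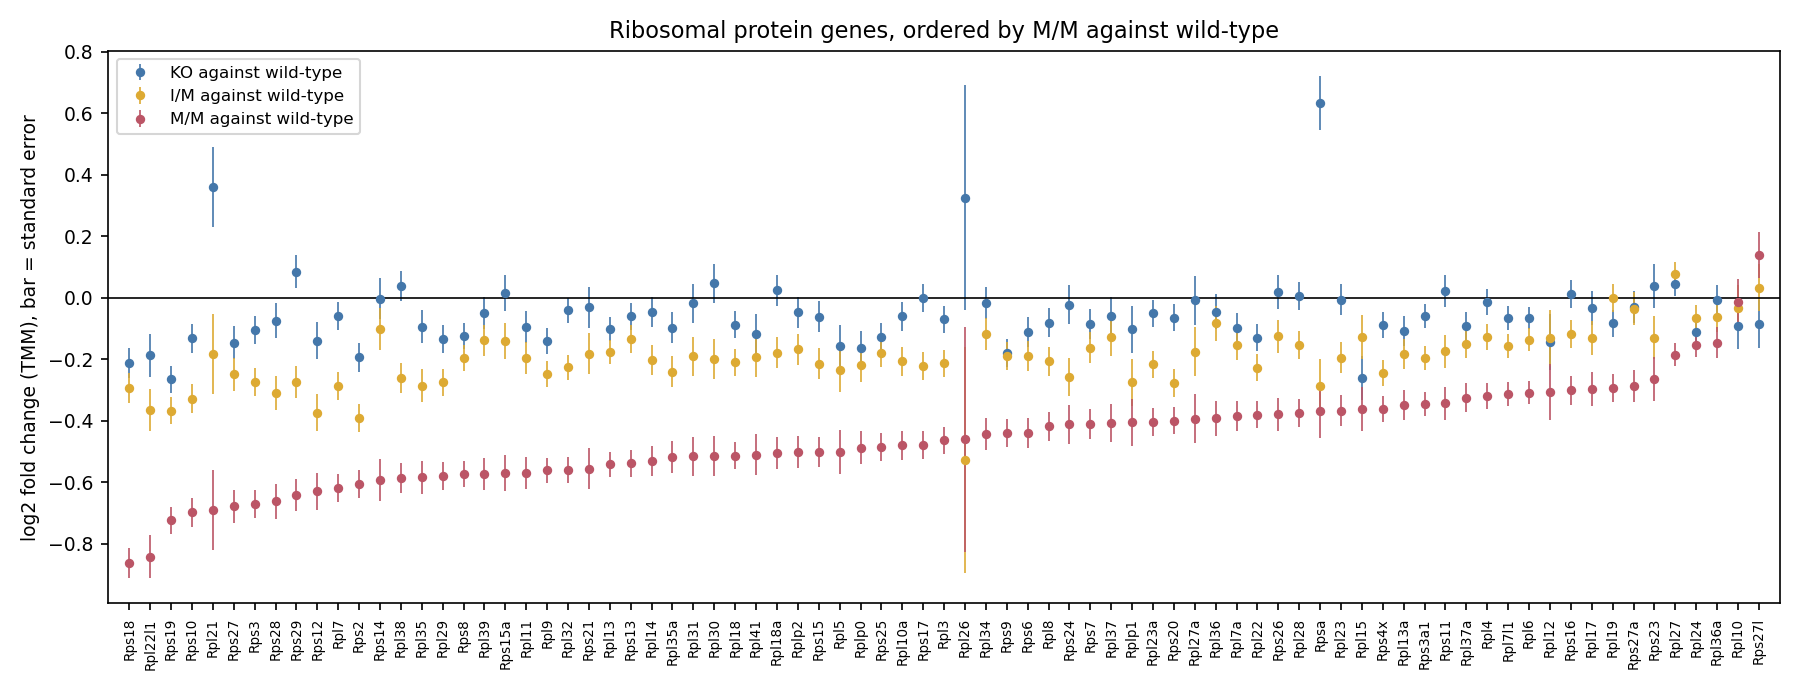
Log2 fold change on the TMM scale with its standard error for 79 of the 80 tested members, in M/M (red), I/M (yellow) and KO (blue) against the same WT libraries, ordered by the value in M/M. With TMM factors all but Rps27l lie below 0 in M/M and I/M values mostly lie between those and 0, while with library size only the members centre near 0 in each comparison, and Rpsa stands out in KO.

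Only 3 tested members were not called in M/M against WT. Rpl10, whose protein completes the peptidyl transferase region late in 60S maturation, was at 194.6, 219.8 and 192.9 CPM in WT and at 178.2, 212.1 and 210.8 CPM in M/M. The libraries overlapped, and the log2 fold change was −0.01 ± 0.07 (adjusted p = 0.874). Rpl10 (chrX:74270812-74273135, plus strand) has a retrocopy, Rpl10-ps3, that is listed as protein coding at 214.9, 219.4 and 225.0 CPM in WT and 197.8, 190.9 and 197.0 CPM in M/M, so the split of reads between the pair is uncertain. Rps27l, a stress-responsive paralog of Rps27 and a known p53 target, was at 14.3, 16.4 and 16.4 CPM in WT and at 16.1, 18.3 and 17.5 CPM in M/M. Its log2 fold change of 0.14 ± 0.08 was not called (adjusted p = 0.123), and without M/M replicate 1 it was called higher. Rpl26, a 60S protein near the exit of the peptide tunnel, spread widely within WT. It was at 306.7, 400.9 and 117.6 CPM in WT and at 228.0, 192.8 and 179.0 CPM in M/M, a log2 fold change of −0.46 ± 0.37 (adjusted p = 0.291). Both Rpl10 and Rps27l were called higher with library size only, by 0.50 ± 0.08 and 0.65 ± 0.08 on the log2 scale.

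**Figure D4:**
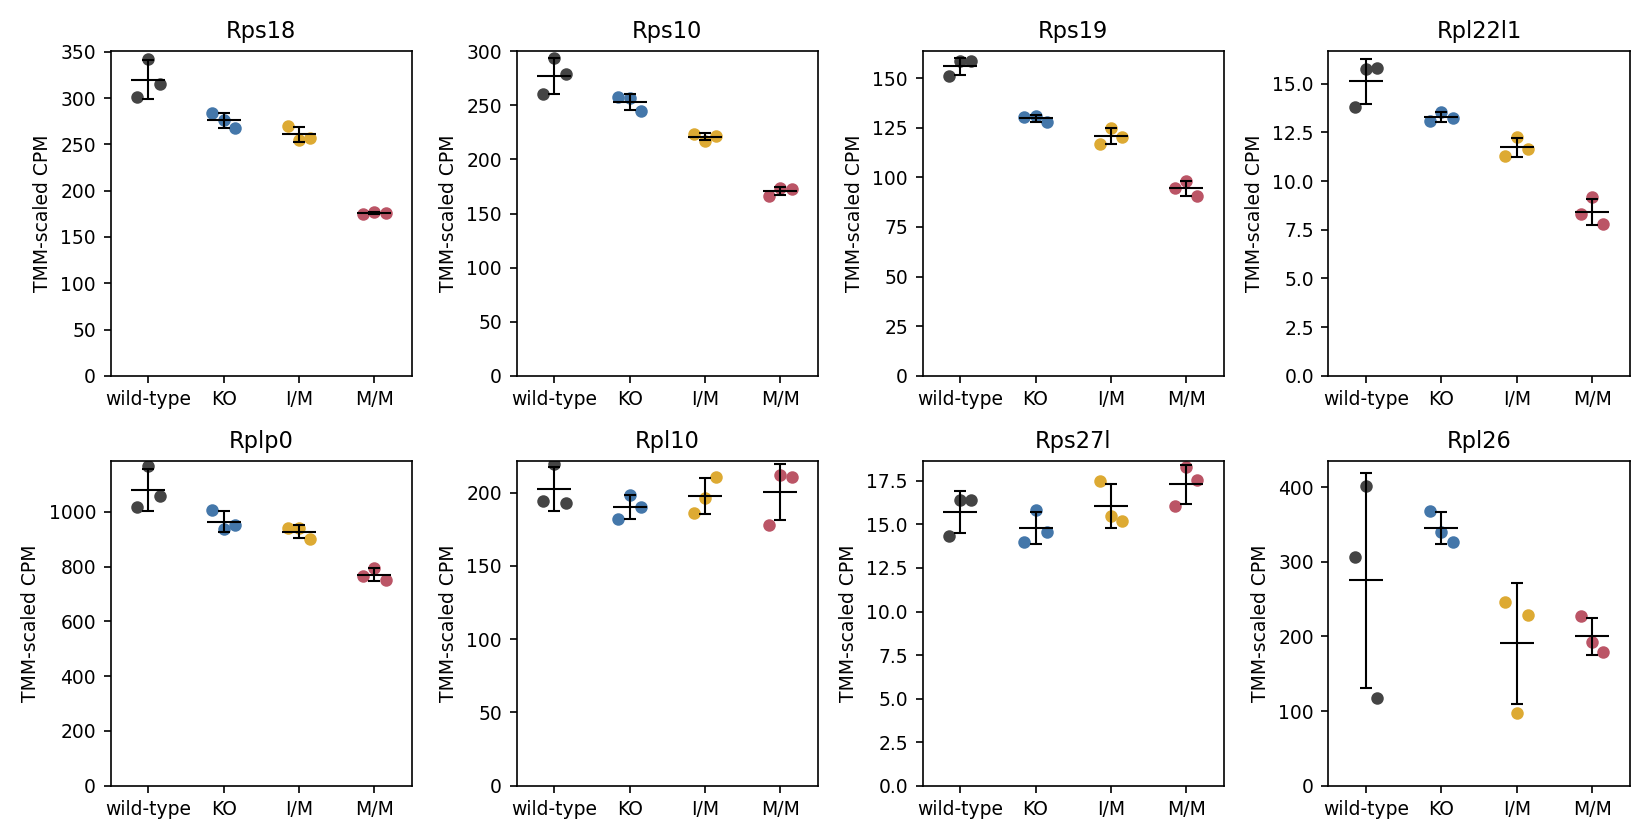
TMM-scaled CPM of 8 members by genotype, each point a library (3 per genotype), with the mean as a horizontal mark and the SD as a bar. Rps18, Rps10, Rps19, Rpl22l1 and Rplp0 are lowest in M/M on this scale (Rplp0 is level with library size only), Rpl10 and Rps27l overlap between WT and M/M, and Rpl26 spreads from 117.6 to 400.9 CPM within WT.

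The makeup of the pool needs no scaling between libraries, and single members took up different shares of it in WT and M/M. Each member's share is its count over the summed count of all 83 members of the library, given as mean and SD of 3 libraries and without a test. Rps18 made up 1.52% ± 0.02 of the pool in WT and 1.16% ± 0.03 in M/M, so its share there was 76.2% of that in WT. Rpl22l1 stood at 77.2% of its WT share, Rps19 at 83.8% and Rps10 at 85.3%. At the other end, Rps27l rose to 152% of its WT share, from 0.0746% ± 0.0041 to 0.114% ± 0.0062. Rpl10 stood at 137% (0.960% ± 0.029 against 1.32% ± 0.10), Rpl36a at 125%, Rpl24 at 124% and Rpl27 at 122%. For each of these 9 members the shares of the 3 WT and the 3 M/M libraries did not overlap, and the last 2 were chosen after their values were seen. All 9 lie at the ends of the same comparison of M/M with WT. Their lack of overlap thus follows largely from the choice and is no separate support. The 32 genes of the 40S subunit together held 36.7, 36.5 and 37.0% of the pool in WT and 35.8, 35.6 and 35.7% in M/M. I/M was at 36.1, 35.9 and 36.0%, and KO at 37.2, 37.3 and 37.2%. The KO share includes Rpsa, whose log2 fold change in KO against WT was 0.68 with library size only. With TMM factors and its named pseudogenes added, Rpsa was at −0.30. The 40S share without Rpsa was not computed, so the place of KO above WT may rest on this gene.

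Paralogs, some of which can stand in for each other in a ribosome, were compared by their own values, and the differences between paralogs were not tested. Rps27 was at 58.9, 65.3 and 60.9 CPM in WT and at 37.0, 40.4 and 38.2 CPM in M/M, a log2 fold change of −0.68 ± 0.05 (adjusted p = 1.57e-07), while its paralog Rps27l was not called. Rpl22l1 (chr3:28805436-28807424, plus strand), a paralog of Rpl22 whose level Rpl22 is known to repress, was at 13.8, 15.7 and 15.8 CPM in WT and at 8.29, 9.16 and 7.82 CPM in M/M. It fell by 0.84 ± 0.07 on the log2 scale (adjusted p = 2.34e-07). Rpl22 itself was at 111.8, 118.5 and 113.4 CPM in WT and at 84.1, 89.3 and 90.4 CPM in M/M, a smaller log2 fold change of −0.38 ± 0.04 (adjusted p = 5.76e-06). When scaled by library size only, Rpl22 rose by 0.13 and Rpl22l1 fell by 0.33 on the log2 scale. Rpl7 was at 604.3, 673.9 and 629.3 CPM in WT and at 408.5, 411.8 and 421.5 CPM in M/M, a log2 fold change of −0.62 ± 0.05 (adjusted p = 8.10e-08), and its paralog Rpl7l1, a factor of ribosome assembly, was at −0.31 ± 0.04 (adjusted p = 1.20e-05).

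Of the X-linked members, Rps4x fell by 0.36 ± 0.04 and Rpl39 by 0.57 ± 0.05 on the log2 scale (adjusted p = 5.76e-06 and 5.37e-07), while Rpl36a fell by 0.15 ± 0.05 (adjusted p = 0.0236) and Rpl10 was not called. With library size only Rps4x and Rpl36a were called higher, at 0.15 and 0.37. Rpl36al, an autosomal retrocopy of Rpl36a outside the naming rule, had a log2 fold change of −0.25 ± 0.06 (adjusted p = 0.00280). The tissue-restricted paralogs were at or near 0. Rpl10l, a testis paralog of Rpl10, had no count in any of the 12 libraries, which allows up to 3 counts in each. Rpl3l, the muscle paralog of Rpl3, was at 0 in the WT libraries and at most 0.0217 CPM in any library, and Rpl39l, the testis paralog of Rpl39, was at most 0.210 CPM. Rpl3, a core protein near the peptidyl transferase centre, was at 300.7, 333.1 and 326.0 CPM in WT and at 233.9, 234.3 and 227.5 CPM in M/M, a log2 fold change of −0.46 ± 0.04 (adjusted p = 1.02e-06) with TMM factors that turned to 0.05 with library size only.

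In I/M against WT, 57 of 80 members fell and none rose with TMM factors, whereas with library size only 4 fell and 7 rose. Among all tested genes 15.3% were called lower and 17.3% higher with TMM factors, and 3.95% lower and 51.9% higher with library size only. Members had a median log2 fold change of −0.19 and all tested genes one of 0.00, and with library size only 0.01 and 0.20. No member passed both thresholds, which 3.33% of all tested genes did. DESeq2 called 60 lower and none higher, and at an unadjusted p of at most 0.05 edgeR called 65 lower and none higher. Of all 8984 tested genes, 1804 were lower and 1927 higher at that unadjusted p. Without I/M replicate 3, 47 members fell, and without WT replicate 2 the count was 43, the lowest when a library was left out. I/M values lay below all WT values for 66 members, against 21.5% of all tested genes, and for 68 members without I/M replicate 3.

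Of the 5 largest called falls in I/M, 4 were of 40S genes. Rps2, which lies at the mRNA entry of the subunit, was at 549.9, 604.7 and 600.6 CPM in WT and at 460.0, 447.0 and 430.6 CPM in I/M. The groups did not overlap, and the log2 fold change was −0.39 ± 0.05 (adjusted p = 2.63e-05). Rps12 was at 188.5, 222.4 and 192.5 CPM in WT and at 162.5, 150.5 and 152.4 CPM in I/M, a log2 fold change of −0.37 ± 0.06 (adjusted p = 3.45e-04). Rps19 was at 117.0, 125.0 and 120.5 CPM in I/M, a log2 fold change of −0.37 ± 0.04 (adjusted p = 2.82e-05), Rpl22l1 was at −0.37 ± 0.07 (adjusted p = 0.00126) and Rps10 at −0.33 ± 0.05 (adjusted p = 1.47e-04). Rpl27 was the only member whose 3 I/M values lay above all WT values, at 102.7, 98.4 and 102.1 CPM against 94.5, 96.3 and 96.3 CPM, but it was not called and was picked out after its values were seen (log2 fold change 0.08 ± 0.04, adjusted p = 0.130).

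M/M and I/M were also compared directly, with 70 of 80 members lower in M/M and none higher with TMM factors, whereas with library size only 5 were lower and 20 higher. Among all tested genes 25.7% were called lower and 25.6% higher with TMM factors, and 5.43% lower and 70.4% higher with library size only. Both thresholds were passed by 4.7% of all tested genes and by no member. Without I/M replicate 3, 66 members were lower. DESeq2 called 71 lower and none higher, and at an unadjusted p of at most 0.05 edgeR called 71 lower and none higher. Of all 8984 tested genes, 2582 were lower and 2548 higher at that unadjusted p. The median log2 fold change was −0.27 for members and 0.00 for all tested genes, and with library size only 0.04 and 0.31. For 71 members the M/M values lay below all I/M values, against 30.2% of all tested genes, and for 72 members without I/M replicate 3. On the TMM scale the M/M mean was below the I/M mean, and that below the WT mean, for 76 of the 80 tested members. The share of all tested genes with this order was not computed, so this count is a description only.

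Besides Rps18, the members with the largest falls from I/M to M/M included Rpl21, Rps14 and Rpl22l1. Rps14, mapped to the interval deleted in human 5q- syndrome, was at 198.5, 179.4 and 191.9 CPM in I/M and at 127.8, 146.6 and 130.8 CPM in M/M. The groups did not overlap, and the log2 fold change was −0.49 ± 0.07 (adjusted p = 5.16e-05), while I/M against WT was not called (−0.10 ± 0.07, adjusted p = 0.275). Rpl21 was at 205.6, 225.7 and 204.7 CPM in I/M and at 142.1, 132.5 and 173.0 CPM in M/M, a log2 fold change of −0.51 ± 0.13 (adjusted p = 0.00554). WT libraries of Rpl21 ran from 191.6 to 298.9 CPM, a coefficient of variation above 20%, which Rpl26 alone shared among WT members.

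In KO against WT few members were called: 4 fell and 1 rose. Among all tested genes 2.2% were called lower and 2.16% higher, and 0.568% passed both thresholds, which no member did. The median log2 fold change was −0.07 for members and 0.00 for all tested genes, and with library size only −0.02 and 0.05, where 1 member fell and 1 rose beside 1.27% and 2.8% of all tested genes. DESeq2 called 6 lower and 1 higher, and at an unadjusted p of at most 0.05 edgeR called 21 lower and 2 higher. Of all 8984 tested genes, 834 were lower and 795 higher at that unadjusted p. The 4 that fell were genes of the 40S subunit. Rps19 was at 130.5, 131.0 and 127.6 CPM in KO, below all WT libraries, a log2 fold change of −0.27 ± 0.04 (adjusted p = 0.00279), and it was the member still called with library size only. Rps18 was at 284.1, 276.1 and 267.8 CPM in KO (−0.21 ± 0.05, adjusted p = 0.0262). Rps2 was at 514.6, 505.4 and 514.2 CPM (−0.19 ± 0.05, adjusted p = 0.0306) and Rps9, a protein that helps keep decoding accurate, at 250.5, 248.3 and 245.0 CPM against 268.5, 293.6 and 279.9 CPM in WT (−0.18 ± 0.05, adjusted p = 0.0458). The count of 4 dropped to 1 without WT replicate 2, without WT replicate 3, without KO replicate 2 or without KO replicate 3, and to 2 without KO replicate 1.

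The 1 member that rose in KO was Rpsa, a 40S protein also known as the laminin receptor, and its rise went with a fall of a processed pseudogene. Rpsa (chr9:120127689-120132369, plus strand) was at 477.7, 484.4 and 445.2 CPM in WT and at 757.6, 714.5 and 712.2 CPM in KO. The groups did not overlap, and the log2 fold change was 0.63 ± 0.09 (adjusted p = 6.64e-04). Rpsa-ps10 (chr3:150072658-150073542, minus strand), an intronless copy of Rpsa, was at 366.7, 480.5 and 506.1 CPM in WT, 284.6, 386.2 and 296.0 CPM in I/M, and 271.1, 317.1 and 281.4 CPM in M/M, but at 15.5, 14.7 and 14.4 CPM in KO. With the counts of its 12 named pseudogenes added, Rpsa was at 851.0, 972.4 and 959.4 CPM in WT and at 781.5, 737.3 and 734.4 CPM in KO. Its direction then reversed to a log2 fold change of −0.30 ± 0.06 (adjusted p = 0.0079). The named pseudogenes held 49.4% of that sum in WT and 3.04% in KO. Whether reads moved between the parent and the copy in the counting was not tested. In M/M, Rpsa was at 349.2, 332.8 and 407.2 CPM, a log2 fold change against WT of −0.37 ± 0.09 (adjusted p = 0.00237) by itself and −0.50 with pseudogenes added.

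**Figure D5:**
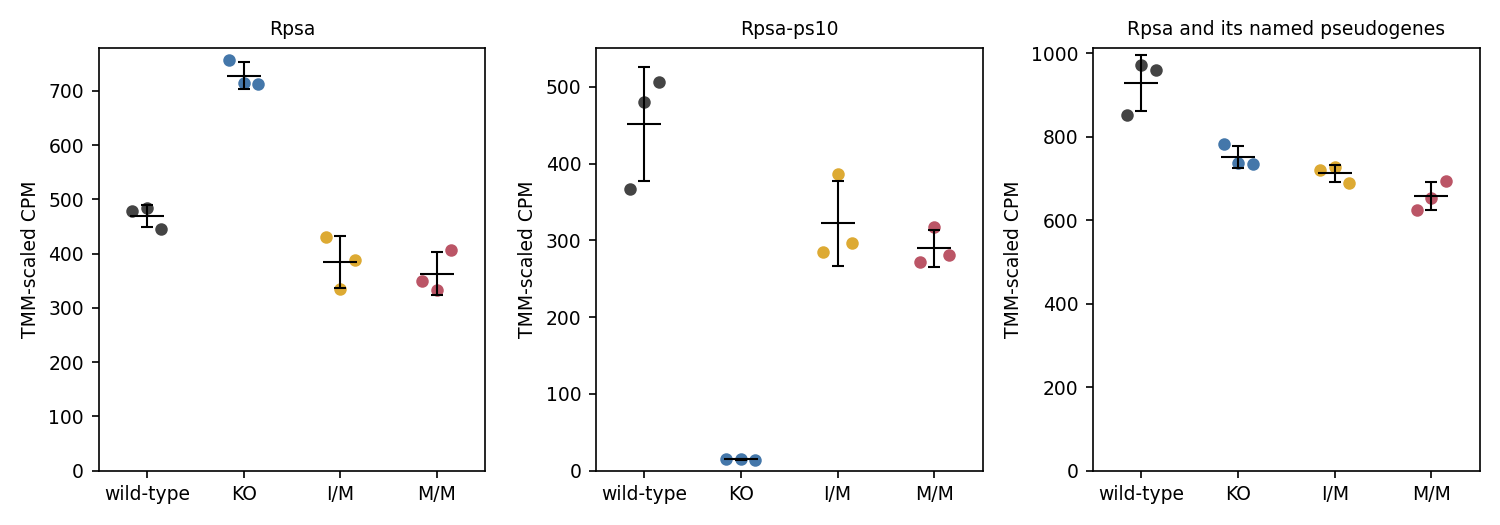
TMM-scaled CPM by genotype of Rpsa (left), of its processed pseudogene Rpsa-ps10 (middle), and of Rpsa with its 12 named pseudogenes (right), each point a library (3 per genotype) with the mean and SD. Rpsa is highest in KO (712.2 to 757.6 CPM), where Rpsa-ps10 is lowest (14.4 to 15.5 CPM), and the sum in KO lies below WT.

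Pseudogenes of Rpl15, a 60S protein picked out after its values were seen, also differed between KO and WT libraries, in both directions. Rpl15-ps2 (chr9:72060937-72061549, plus strand) was at 0.275, 0.420 and 0.278 CPM in WT and at 46.2, 41.5 and 42.6 CPM in KO. Rpl15-ps6 (chr15:52477617-52478228, minus strand) was at 1.49, 1.91 and 1.72 CPM in WT and at 61.5, 62.1 and 58.3 CPM in KO. Rpl15-ps3 (chr9:22185607-22186221, minus strand) went from 33.2, 28.8 and 31.6 CPM in WT to 2.54, 2.41 and 2.40 CPM in KO. Rpl15 itself, on chromosome 14, was at 223.2, 265.5 and 234.7 CPM in WT and at 206.4, 199.7 and 197.7 CPM in KO, which did not overlap but was not called (log2 fold change −0.26 ± 0.07, adjusted p = 0.0624). With its 6 named pseudogenes added the value was 0.17 ± 0.05 (adjusted p = 0.116). Over all members, adding named pseudogenes left 77 lower and none higher in M/M, 59 lower in I/M, and 5 lower and none higher in KO. Of 311 named ribosomal protein pseudogenes, 34 passed the filter, of which 24 were lower and none higher in M/M against WT with TMM factors, whereas with library size only 2 were lower and 8 higher.

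Genes that make or use ribosomes but lie outside the naming rule were counted in the same fit, with TMM factors. Their counts in M/M stand beside 31.4% lower and 31.4% higher among all tested genes, and with library size only beside 5.51% lower and 82% higher. The 5 further ribosomal protein genes all fell in M/M (median log2 fold change −0.45), whereas with library size only 1 fell and 1 rose. Rack1, a scaffold on the 40S head, was at 529.4, 583.0 and 548.7 CPM in WT and at 372.9, 353.6 and 340.4 CPM in M/M, a log2 fold change of −0.64 ± 0.05 (adjusted p = 1.80e-07). Fau, which encodes Rps30 behind a ubiquitin-like domain, was at −0.41 ± 0.05 (adjusted p = 1.46e-05). As a share of counted reads these 5 genes stood at 98.6% of WT.

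Translation elongation factors, which deliver tRNA and move the ribosome, were near the ribosomal protein genes, with 6 of 7 tested lower, none higher and a median of −0.50, whereas with library size only 2 were lower and 3 higher. Eef1g was at 407.5 ± 13.1 CPM in WT and 208.4 ± 2.4 CPM in M/M (SD, n = 3), a log2 fold change of −0.97 ± 0.04 (adjusted p = 2.94e-10), and Eef1a1, the most abundant of them, was at −0.32 ± 0.05 (adjusted p = 8.16e-05). Of 38 initiation factors 22 were lower and 3 higher, with a median of −0.15, whereas with library size only 1 was lower and 30 higher, and Eif5b had the largest fall at −1.01 ± 0.10 (adjusted p = 1.93e-06). Of 22 other transcripts listed as having a TOP motif 13 were lower and none higher, with a median of −0.23, whereas with library size only 2 were lower and 15 higher. Gas5, a host gene of small nucleolar RNAs, was at −0.78 ± 0.11 (adjusted p = 3.84e-05). Genes of the machinery that makes ribosomes were counted in the same way. Of 73 tested genes of pre-rRNA processing and assembly 24 were lower (32.9%) and 9 higher (12.3%), with a median of −0.03, whereas with library size only 2 were lower and 65 higher, and Tsr2, the escort of Rps26, was at −0.71 ± 0.06 (adjusted p = 2.43e-07). Of 10 tested RNA polymerase I genes 3 were lower and 1 higher and 9 were below 0, with a median of −0.10, whereas with library size only none was lower and 9 were higher. With library size only all genes shift up by 0.50, so these list medians, like those of the members, are relative to the bulk.

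Of 34 tested genes that control translation capacity through Myc, mTORC1 and the 4E-BP proteins, 11 were higher and 16 lower in M/M, with a median of −0.07, whereas with library size only 22 were higher and 3 lower. Cdkn1a, a p53 target kept in that list as a growth inhibitor, went from 0.128 ± 0.036 CPM in WT to 11.8 ± 2.0 CPM in M/M (SD, n = 3, adjusted p = 7.92e-10). It could pass the filter of 5 CPM only through libraries where it was high, so its call is tied to the filter. Eef2k, the kinase that inhibits elongation factor 2, rose by 1.86 ± 0.09 on the log2 scale (adjusted p = 1.41e-09). Mycn, a transcription factor of the Myc family, was at 33.5, 29.5 and 28.6 CPM in WT and at 33.0, 31.8 and 32.2 CPM in M/M and was not called (log2 fold change 0.08 ± 0.06, adjusted p = 0.226), whereas with library size only it was called higher at 0.59. Myc, which did not pass the filter, was at 0.452, 0.315 and 0.0991 CPM in WT and at 1.04, 1.27 and 0.846 CPM in M/M. Mtor, the kinase of mTORC1, fell from 113.5 ± 5.4 to 79.9 ± 5.8 CPM (SD, n = 3, log2 fold change −0.51 ± 0.07, adjusted p = 3.25e-05) and was at 0.00 with library size only. Larp1, which binds the TOP motif, was lower with TMM factors (−0.17 ± 0.06, adjusted p = 0.0256) and higher with library size only (0.34 ± 0.06).

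With TMM factors, most markers of lens cells were lower in M/M, while most markers of vascular endothelium, pericytes and fibroblasts were higher. Of 16 tested lens fiber markers 14 were lower in M/M and none higher (median log2 fold change −0.71), and of 9 lens epithelium markers 7 were lower and 1 higher, with a median of −0.65. With library size only 9 fiber markers were lower and 4 higher, and 5 epithelium markers were lower and 2 higher. Bfsp1 and Bfsp2, the beaded filament proteins of fibers, fell by 1.32 ± 0.11 and 0.90 ± 0.07, and Foxe3, an epithelial transcription factor, fell by 2.24 ± 0.12 on the log2 scale (adjusted p = 2.24e-07, 1.24e-07 and 4.57e-09). Of 9 proliferation genes 7 rose and none fell, with a median of 0.44, and 9 rose with library size only. Vascular endothelium markers summed to 15.02 to 17.7 CPM in WT and 87.5 to 103.6 CPM in M/M, with 8 of 9 tested higher. Markers of pericytes and fibroblasts summed to 78.2 to 94.7 CPM in WT and 331.8 to 505.3 CPM in M/M, with 8 of 8 tested higher. Some of these markers could pass the filter of 5 CPM only through libraries where they were high. Flt1 had a mean of 0.061 CPM in WT and 9.40 CPM in M/M, and Postn 0.141 and 64.4 CPM. The counts of higher markers in the vascular and the pericyte and fibroblast lists thus follow in part from the filter and are no separate support. Macrophage markers, none of which passed the filter, summed to 0.476 to 0.727 CPM in WT and 11.3 to 22.7 CPM in M/M. Photoreceptor markers summed to 2.73 to 3.31 CPM in WT and 3.36 to 7.14 CPM in M/M, where the mean was 179% of that in WT. Pigmented cell markers summed to 5.99 to 6.63 CPM in WT and 3.01 to 3.58 CPM in M/M, 50.3% of the WT mean. Red blood cell markers summed to 1.24 to 12.04 CPM in WT and 12.4 to 15.01 CPM in M/M, 197% of the WT mean, and none of these 3 sums was tested. The part of these cells in the members' values was not tested.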

How the data were processed

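Lens RNA libraries had been sequenced as poly-A TruSeq libraries. The authors counted reads with DRAGEN on mm10 with Ensembl annotation, per the study's methods and processing notes, and the deposited values are estimated counts of each gene without normalization. A second deposited table holds the authors' CPM, fold changes and p-values for 9470 genes, which were not used here. Library columns were matched to genotypes by the sample labels. Estimated counts were rounded, since a test for whole counts had been planned, and 8984 genes with a CPM of at least 5 in at least 3 libraries were tested with edgeR 4.0.16 (quasi-likelihood, TMM factors, genotype as factor, all 12 libraries, Benjamini-Hochberg adjustment per comparison, adjusted p of at most 0.05; standard errors from the F statistic). DESeq2 1.42.0, other scalings and filters, a replicate block and leaving out each library were alternatives. Tests were checked on data simulated from WT levels, in which randomly picked genes went up or down in M/M. Falls to 0.8 of the level were called for 12 of 33 genes, rises to 1.25 for 23 of 34, and falls to 0.6667 for 31 of 33. Of 8784 unchanged genes 7 were called. The simulation was not set up to imitate the change in crystallin share, so it does not check the choice of scaling. Gene coordinates came from GENCODE M21 (GRCm38). Counted reads ran from 56162169 to 82090198 per library, and intervals for counting error cover that error only.

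The members and gene lists were chosen with earlier results of these data known. Members named in the text were those with the 5 largest called changes per comparison, paralog pairs, the P-stalk, Rpsa, Rps6, Rpl5, Rpl11, those that failed the filter and the 3 highest and 3 lowest by level per length; from other lists up to 3 genes with the largest called change, Rack1, Fau and Trpm3 were named. Other genes were chosen after their values were seen. Some genes that this rule covers are not reported here. Same-numbered replicates were checked for shared deviations, and the numbers did not pair the samples.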

Additional observations from a re-analysis of the deposited data

How the results depend on the processing

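Scaling decided the sign of the members' fold changes, but not their place below the bulk of genes. With library size only, M/M against WT gave 10 lower and 26 higher, and I/M against WT 4 lower and 7 higher. KO against WT gave 1 lower and 1 higher, and M/M against I/M 5 lower and 20 higher. Among all tested genes this scale called 5.51% lower and 82% higher in M/M against WT, and 3.95% and 51.9% in I/M against WT. The shares were 1.27% and 2.8% in KO against WT, and 5.43% and 70.4% in M/M against I/M. The summed level was then 99.8% of WT in I/M and 103% in M/M. On that scale 49 of the 80 members were above 0 in M/M against WT, among them Rpl24 (0.36), Rpl27 (0.32), Rpl26 (0.063), Rps9 (0.070), Rpsa (0.14), Rpl3 (0.046), Rpl10 (0.50), Rpl22 (0.13), Rpl36a (0.37), Rps4x (0.15), Rpl7l1 (0.19), Rplp0 (0.025), Rplp1 (0.11), Rplp2 (0.0086), Rps6 (0.071), Rpl5 (0.011) and Rpl41 (0.0024), and Rpsa in M/M against I/M was at 0.23. In M/M against WT on that scale, 31 of the 80 members were below 0, against 886 of all 8984 tested genes. Members were thus above 0 less often than genes in general. By construction this scale leaves in the shift of all genes. With DESeq2, M/M against WT gave 77 lower, as did TMM computed without crystallin genes.

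The KO calls changed with several settings. Members lower in KO numbered 1 when only the 2 genotypes were fitted and 1 with the replicate block. Members higher numbered 3 without a filter on low counts and 0 with named pseudogenes added, an alternative chosen after seeing the data, where Rpsa was at −0.30. The cause was not tested. The replicate numbers are shared labels only (correlations of deviations from −0.27 to 0.16 over 18 pairs), and with the block 77 members were lower in M/M, 54 in I/M and 69 in M/M against I/M.

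Leaving out 1 library at a time gave 75 to 78 lower and 0 to 1 higher in M/M against WT, 43 to 61 lower in I/M, 1 to 6 lower and 1 to 2 higher in KO, and 61 to 70 lower in M/M against I/M. Depth limits little here, since each tested member had at least 663 counts in every library, while 3 libraries per genotype limit small differences.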

Other observations

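Mitochondrial ribosomal proteins build the separate ribosome of the mitochondrion. Of 73 tested genes for them, 30 were lower and 4 higher in M/M against WT with TMM factors, with a median log2 fold change of −0.14, whereas with library size only 1 was lower and 62 higher. These are 41.1% lower and 5.48% higher with TMM factors, against 31.4% and 31.4% of all tested genes, and 84.9% higher with library size only, against 82% of all tested genes. The median lay between that of the cytosolic members (−0.47) and that of all tested genes. Mrps26 had the largest fall, from 74.2 ± 3.6 CPM in WT to 36.7 ± 7.0 CPM in M/M (SD, n = 3, log2 fold change −1.02 ± 0.11, adjusted p = 2.14e-06 by edgeR's quasi-likelihood test). In I/M against WT, 3 were lower and 5 higher, with a median of −0.03, and in KO 1 was lower and 1 higher.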
